A study of Homo sapiens with 4 samples.

Results

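The PEA3 transcription factors and the feedback genes of the ERK pathway were described after knockdown of NeuroD1 in IMR-32, a MYCN-amplified neuroblastoma line of human origin. The group held 10 named genes: ETV1, ETV4 and ETV5, the Sprouty genes SPRY1, SPRY2 and SPRY4, the Sprouty-related genes SPRED1 and SPRED2, and the phosphatases DUSP4 and DUSP6. They were chosen from results of this same comparison as genes known to report ERK signalling, so their fold changes are given as a description, without a test. All 10 were among the 60612 genes of the count table and all 10 were among the 17537 genes that passed the filter on low counts.

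RNA sequencing was done on poly(A) RNA of 4 libraries. In the shControl group (2 libraries) cells carried a control hairpin, and in the shNeuroD1 group (2 libraries) a hairpin against NeuroD1. Both hairpins were inducible, stably transduced, and induced in both groups with doxycycline at 1 µg/mL for 48 h. The genotype field calls the control cells WT. The labels do not name the hairpin, and the column headers of the study's own list of changed genes give the same hairpin for both knockdown libraries. Separate cultures are not stated for libraries of the same group, so the errors given here measure only the spread between these libraries, which may be technical.

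ERK is the last kinase of a cascade that runs from receptor tyrosine kinases through RAS, RAF and MEK. Active ERK raises transcription of the PEA3 family of ETS factors (ETV1, ETV4, ETV5) and relieves their repression by CIC. It also induces its own brakes: Sprouty and SPRED proteins act on the steps between receptor, RAS and RAF, and dual-specificity phosphatases remove phosphate from ERK. In neuroblastoma, signalling by ALK, a receptor mutated in some tumours, is known to raise ETV and feedback genes.

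Promoter windows of 300 bases, from 250 before to 50 after a transcript start, were taken from RefSeq on GRCh38.p14, and 7 of the 10 genes matched with 16 windows. ETV4, ETV5 and DUSP4 had no entry. Searched on both strands were the octamers bound by CIC (TGAATGAA, TGAATGGA, TCAATGAA and TCAATGGA), the ETS motif CCGGAA, the E-box CANNTG, and the E-box CAGATG, a form that NeuroD1 binds and that CANNTG includes. The 4 windows shown hold an octamer or the ETS motif, in capitals, and are written on the strand of the gene, 5′ to 3′. The DUSP6 window is chr12:89352452-89352751 (minus strand), the ETV1 window chr7:13991376-13991675 (minus strand), the SPRY2 window chr13:80341077-80341376 (minus strand) and the SPRY1 window chr4:123398136-123398435 (plus strand).
DUSP6: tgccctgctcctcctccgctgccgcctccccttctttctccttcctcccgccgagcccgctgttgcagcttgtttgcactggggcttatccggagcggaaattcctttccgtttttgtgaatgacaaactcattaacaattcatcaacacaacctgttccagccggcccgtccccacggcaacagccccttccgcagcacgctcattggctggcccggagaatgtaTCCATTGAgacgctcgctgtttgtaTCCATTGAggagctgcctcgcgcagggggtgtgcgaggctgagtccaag
ETV1: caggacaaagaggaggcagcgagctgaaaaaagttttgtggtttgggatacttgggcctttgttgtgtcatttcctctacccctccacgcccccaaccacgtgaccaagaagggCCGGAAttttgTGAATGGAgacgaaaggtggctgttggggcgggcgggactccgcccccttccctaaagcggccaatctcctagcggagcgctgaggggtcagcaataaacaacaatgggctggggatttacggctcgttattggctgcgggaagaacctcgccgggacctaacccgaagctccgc
SPRY2: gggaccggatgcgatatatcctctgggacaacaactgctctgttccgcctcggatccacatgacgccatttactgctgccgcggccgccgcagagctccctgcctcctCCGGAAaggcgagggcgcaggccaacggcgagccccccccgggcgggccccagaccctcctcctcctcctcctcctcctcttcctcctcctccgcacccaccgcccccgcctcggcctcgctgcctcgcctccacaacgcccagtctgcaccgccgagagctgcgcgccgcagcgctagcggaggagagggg
SPRY1: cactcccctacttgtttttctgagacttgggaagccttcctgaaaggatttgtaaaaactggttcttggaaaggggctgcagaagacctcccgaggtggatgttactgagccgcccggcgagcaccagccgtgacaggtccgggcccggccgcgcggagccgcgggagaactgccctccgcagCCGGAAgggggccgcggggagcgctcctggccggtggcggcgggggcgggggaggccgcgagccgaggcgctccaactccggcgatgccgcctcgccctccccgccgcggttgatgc

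DUSP6 held 2 CIC octamers, both TCCATTGA, which is TCAATGGA on the opposite strand. Their first bases lay at -24 and 1 from the transcript start, which is counted as 0. Over all 35116 windows, 3.77% held at least 1 octamer and 0.327% held 2 or more. ETV1 held the octamer TGAATGGA at -125 and CCGGAA at -136. The transcript start of that ETV1 window was listed in 1 library only, at 0.0555 FPKM in shNeuroD1 replicate 2, and the window at the main ETV1 start held neither motif. CCGGAA lay at -142 in SPRY2 and at -67 in SPRY1. Of the 16 windows, 5 held CCGGAA (17.2% of all windows), 8 held CANNTG (68.7% of all windows) and 3 held CAGATG (14.7% of all windows). The windows of 1 gene can overlap and are not independent. A match is a description of letters and was not tested as a binding site.

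NEUROD1, the targeted gene, was measured at 417 ± 3.10 CPM (read counts scaled to library size with TMM factors; SD, n = 2) in shControl and at 60.9 ± 3.90 CPM (SD, n = 2) in shNeuroD1. This is a log2 fold change of -2.77 (SE 0.05; adjusted p = 8.59e-29, edgeR quasi-likelihood test). Total counts ran from 14665210 to 16482463 per library. Of the adrenergic neuroblast markers, HAND2 (10812 to 12452 counts) and GATA3 (2114 to 3326 counts) were abundant in every library, while TH (10 to 88 counts) and DBH (11 to 24 counts) were low. The immune markers summed to between 0.136 and 0.614 CPM, with CD3E at 0 in all libraries. The 6 fibroblast markers summed to between 34.3 and 37.1 CPM in shControl and between 22.8 and 23.4 in shNeuroD1, most of it COL1A1, with PRRX1 at 0. COL1A1 fell (log2 fold change -0.94), while COL3A1 (0 and 2 counts in shControl, 15 and 18 in shNeuroD1) and LUM (14 and 10 counts, then 37 and 37) rose past both thresholds. The 4 Schwann cell markers summed to between 4.85 and 4.93 CPM in shControl and between 8.73 and 9.95 in shNeuroD1, with SOX10 at 8 to 17 counts. The 3 epithelial markers summed to between 0 and 0.121 CPM in shControl and between 1.43 and 1.91 in shNeuroD1, where EPCAM had 28 and 21 counts and CDH1 0. The 3 endothelial markers summed to between 1.33 and 1.64 CPM over both groups, with CDH5 falling from 18 and 17 counts to 1 and 0 and VWF rising from 7 and 5 counts to 23 and 20, both past both thresholds. The part of these markers in the results below was not tested.

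After NeuroD1 knockdown, 8 of the 10 genes were higher at an adjusted p under 0.05 and 1, SPRY1, was lower, where 26.8% of all genes tested were higher and 28.2% lower. Past both thresholds (adjusted p under 0.05, and more than 1 in size on the log2 scale) were 4 higher genes (ETV4, ETV5, SPRY2 and SPRY4) and 0 lower genes, beside 8.79% and 5.14% of all genes tested. In 8 genes both shNeuroD1 libraries lay above both shControl libraries, as in 38.4% of all genes, and in 2 genes (SPRY1 and DUSP4) both lay below, as in 37.7% of all genes. The median log2 fold change was 0.52 over the 10 genes and 0.01 over all genes tested. Since the choice of genes used this comparison, nothing is read from these counts. In bulk RNA, fewer cells that express a gene and less RNA of it per cell cannot be told apart.

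**Figure D1:**
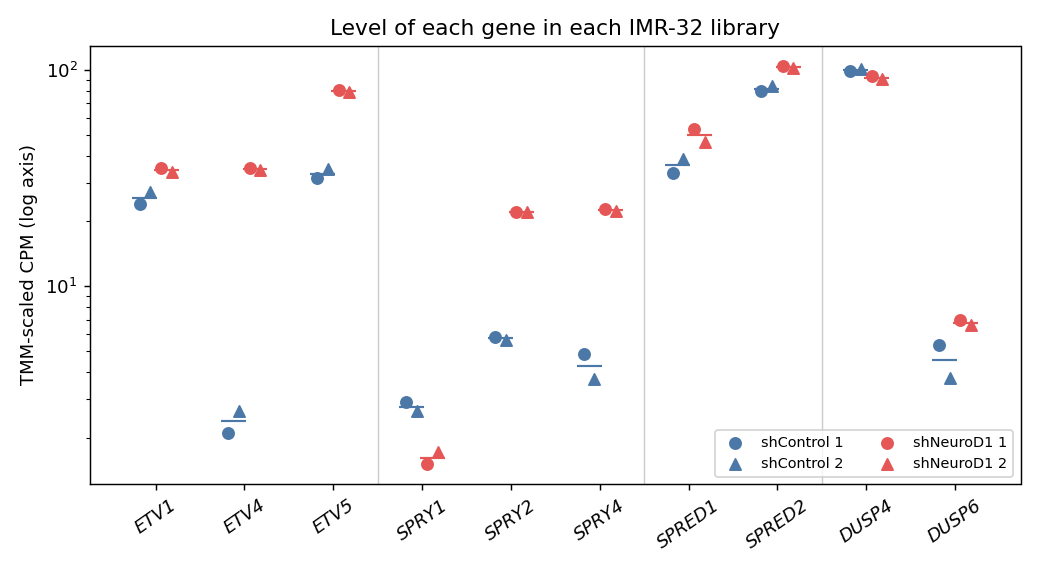
TMM-scaled CPM of each of the 10 genes in each library, on a log axis, with short lines at the group means (2 libraries a group). ETV4 rises from 2.37 to 34.9 CPM, SPRY4 and SPRY2 from 4.30 and 5.75 to 22.5 and 22.04 CPM, while DUSP4 lies at 99.8 and 92.1 CPM.

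ETV4 was the gene of the group that differed most. Its CPM was 2.10 and 2.64 in shControl against 35.4 and 34.4 in shNeuroD1, from 31, 42, 538 and 524 counts. The shNeuroD1 libraries lay far above the shControl libraries and close to each other. The fold between group means was 14.7 and the log2 fold change 3.87 (SE 0.14).

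ETV5, the PEA3 factor with the highest level per length in both groups, was at 31.5 and 34.8 CPM in shControl and at 80.7 and 78.7 CPM in shNeuroD1. The groups did not overlap, and the log2 fold change was 1.26 (SE 0.07), a fold of 2.41. ETV1 was at 23.9 and 27.1 CPM in shControl and at 35.2 and 33.6 CPM in shNeuroD1. It did not overlap between groups either, but by a smaller margin, with a log2 fold change of 0.43 (SE 0.08). Summed per length, the 3 PEA3 factors stood at 8.49 and 9.55 CPM per kb of merged exon in shControl and at 27.4 and 26.6 in shNeuroD1.

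The Sprouty genes, which encode inhibitors of receptor signalling to RAS and ERK, did not move together. SPRY4 was at 4.88 and 3.72 CPM in shControl and at 22.8 and 22.2 CPM in shNeuroD1 (log2 fold change 2.39, SE 0.14). SPRY2 was at 5.83 and 5.67 CPM in shControl and at 21.96 and 22.1 CPM in shNeuroD1 (log2 fold change 1.94, SE 0.13). Both had higher values in each shNeuroD1 library. SPRY1 was the reverse, at 2.92 and 2.64 CPM in shControl and at 1.51 and 1.71 CPM in shNeuroD1, with a log2 fold change of -0.78 (SE 0.29) from 43, 42, 23 and 26 counts.

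The SPRED genes, which hold RAS in check together with neurofibromin, were higher by less. SPRED1 was at 33.4 and 38.9 CPM in shControl and at 53.0 and 46.4 CPM in shNeuroD1 (log2 fold change 0.46, SE 0.08). SPRED2 was at 79.9 and 83.8 CPM in shControl and at 104.3 and 102.1 CPM in shNeuroD1 (log2 fold change 0.33, SE 0.05). In both genes all shNeuroD1 values lay above all shControl values.

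The phosphatases differed from each other. DUSP6, the cytoplasmic ERK phosphatase, was at 5.36 and 3.78 CPM in shControl and at 6.97 and 6.63 CPM in shNeuroD1 (log2 fold change 0.58, SE 0.19). It rested on 60 to 106 counts and on the control libraries: without shControl replicate 2 the log2 fold change was 0.33, and without shControl replicate 1 it was 0.84. DUSP4, a nuclear phosphatase of ERK, was at 99.1 and 100.6 CPM in shControl and at 93.6 and 90.6 CPM in shNeuroD1 (log2 fold change -0.12, SE 0.05) that was not past the adjusted p threshold.

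**Figure D2:**
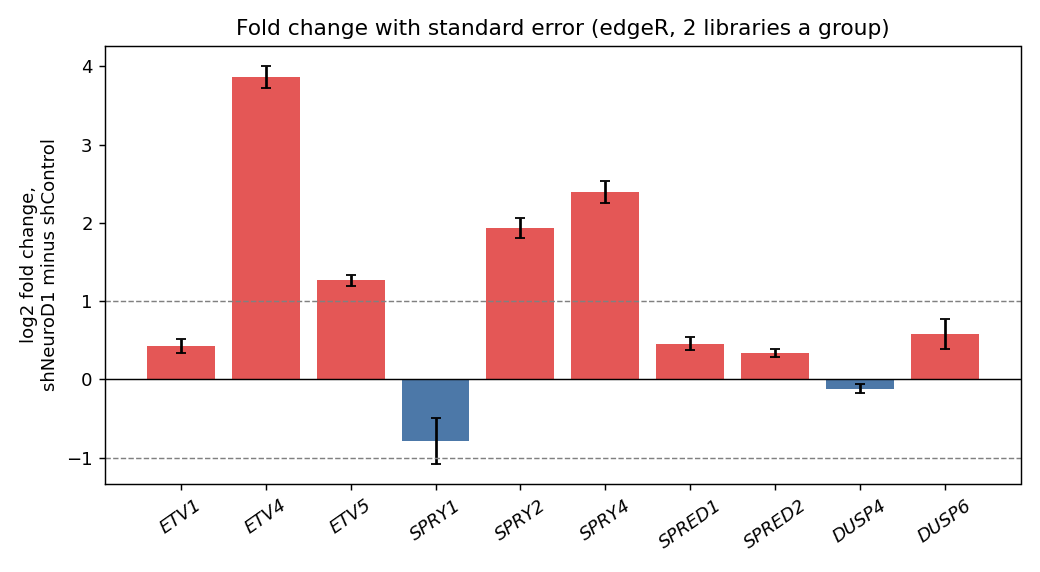
Log2 fold change of each of the 10 genes, shNeuroD1 minus shControl, with its standard error from edgeR (2 libraries a group) and dashed lines at 1 and -1. ETV4 (3.87), SPRY4 (2.39), SPRY2 (1.94) and ETV5 (1.26) lie beyond 1, SPRY1 lies at -0.78 and DUSP4 at -0.12.

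Between genes, levels can be compared only per length. In CPM per kb of merged exon, shControl ran from SPRED2 at 15.9 ± 0.544 (SD, n = 2) through DUSP4 (13.8 ± 0.154), ETV5 (5.71 ± 0.3999), SPRED1 (4.38 ± 0.474), ETV1 (2.65 ± 0.240), SPRY2 (1.89 ± 0.0389) and DUSP6 (0.986 ± 0.241) to SPRY1 (0.702 ± 0.0486), ETV4 (0.658 ± 0.106) and SPRY4 (0.655 ± 0.126). SPRY1, ETV4 and SPRY4 overlapped in their libraries, and the other neighbours in this order did not. In shNeuroD1 the order was SPRED2 (20.03 ± 0.302), ETV5 (13.7 ± 0.234), DUSP4 (12.7 ± 0.290), ETV4 (9.67 ± 0.187), SPRY2 (7.26 ± 0.0409), SPRED1 (6.02 ± 0.567), ETV1 (3.57 ± 0.118), SPRY4 (3.43 ± 0.0660), DUSP6 (1.47 ± 0.0511) and SPRY1 (0.406 ± 0.0349), and no neighbours overlapped. ETV4 was thus at rank 9 of 10 in shControl and at rank 4 in shNeuroD1.

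Several of the 10 genes share their locus with another gene, and the use of strand in counting was not given in the sources used here, so reads from opposite strands cannot be told apart. In GENCODE 29 on GRCh38, DUSP6 (chr12:89347232-89353271, minus strand) shares 40.5% of its merged exon bases with the antisense gene AC024909.2, with 3 and 7 counts in shControl against 5 and 2 in shNeuroD1. ETV5 (chr3:186046308-186110318, minus strand) shares 164 exon bases with DGKG on the same strand, with 32 and 46 counts in shControl against 110 and 100 in shNeuroD1. ETV4 (chr17:43527844-43579620, minus strand) shares 68 exon bases with DHX8. SPRY4 (chr5:142310427-142326455, minus strand) shares no exon base with its antisense gene SPRY4-AS1, counted 0 times in both shControl libraries and 7 and 5 times in shNeuroD1. The other members, ETV1, SPRY1, SPRY2, SPRED1, SPRED2 and DUSP4, share no exon base with another gene.

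The question of whether a gene changed the start it uses was put to the FPKM tables, a ratio within a gene that the choice of genes did not use. The log2 ratio of each start to the other starts of its gene was tested in limma. Of 13280 starts tested, 0 passed an adjusted p under 0.05 (0% called), against 983 at an unadjusted p under 0.05. In ETV4 the 5′-most start (43546185-43546340) had 0.0275 and 0.456 FPKM in shControl and 6.80 and 6.61 in shNeuroD1. It held 30.4% and 73.8% of ETV4 starts in shControl and 77.1% and 75.7% in shNeuroD1. The shares of the control libraries rest on very low FPKM and differ widely, and the difference in log2 ratio was 1.28 (SE 0.88; adjusted p = 0.835 in limma). Only through shNeuroD1 did ETV4 reach the gene mean of 1 FPKM needed for this test (0.0905 and 0.618 FPKM in shControl). In shControl replicate 1 its starts at 0.0275 and 0.0630 FPKM lay below the 0.1 added to each value. The ETV4 ratio therefore cannot decide whether start use changed, and nothing is read from it. In ETV1 the main start (13989563-13989666) held 98.7% and 62.6% in shControl and 87.5% and 95.2% in shNeuroD1 (adjusted p = 0.973 in limma). Shares of the next ETV1 exon (13989268-13989464) varied inside each group: of the FPKM of events across it, inclusion took 20.1% and 78.6% in shControl and 24.3% and 91.8% in shNeuroD1. SPRED1 had 3 transcript ends, and a distal end (38358186-38358464) was listed at 3.13 FPKM in shNeuroD1 replicate 1 and not in the other libraries. No end of a member passed the test (lowest adjusted p = 0.640, the SPRED1 end at 38351014-38357249).

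**Figure D3:**
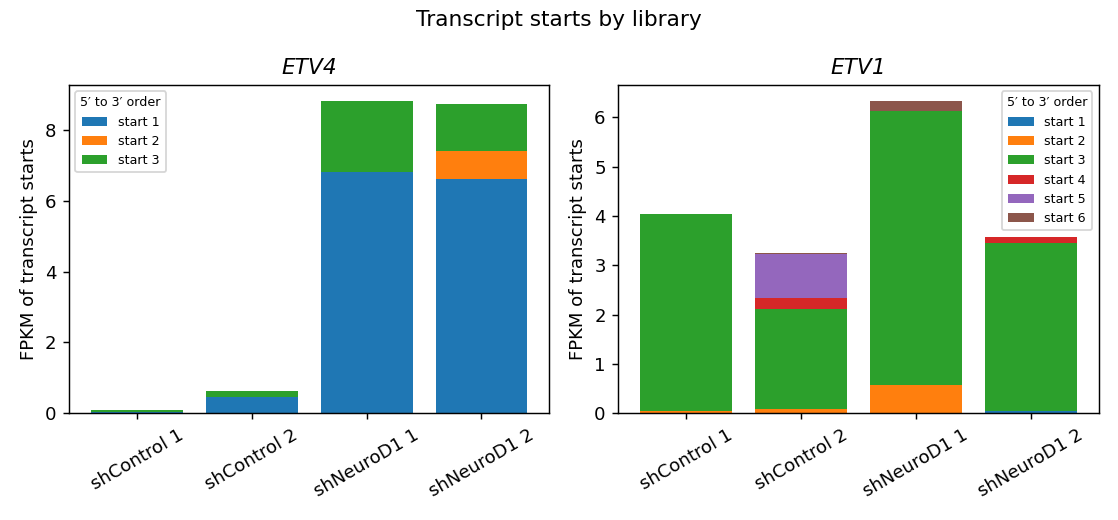
FPKM of transcript starts of ETV4 and ETV1 in each library, stacked in 5′ to 3′ order (1 library a bar). The 5′-most ETV4 start accounts for 6.80 and 6.61 FPKM in the shNeuroD1 libraries, and the main ETV1 start for 2.03 to 5.55 FPKM in all 4 libraries.

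The FPKM tables list 8 of the 10 genes under their own identifier. ETV5 and SPRY2 are not among them, so their change is known here from counts alone. Summed over starts, ETV4 was at 0.0905 and 0.618 FPKM in shControl and at 8.83 and 8.73 in shNeuroD1. DUSP6 was at 0.636 and 0.403 FPKM in shControl and at 1.44 and 1.82 in shNeuroD1. The log2 fold change of DUSP6 was 0.79 on log2(FPKM + 1) and 1.499 on log2(FPKM + 0.1), against 0.58 from counts. At these low FPKM its size depends on the value added.

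The other genes of the pathway were taken from 9 lists with 168 genes, of which 129 were tested. The 9 lists did not move in one direction: 45 genes were higher and 48 lower at an adjusted p under 0.05, and 14 were higher and 14 lower past both thresholds. Each list's counts stand beside 26.8% higher and 28.2% lower, and medians beside 0.01, over all genes tested. Genes are named where they had the largest changes past both thresholds at a mean of at least 1 CPM, with adjusted p values from edgeR over all genes.

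Among the receptors that feed the cascade, 8 of 18 tested were higher and 8 lower, and their median was 0.11 (log2). The median is not stable in sign: it was -0.20 without a filter on low counts and in DESeq2. RET, a receptor of glial cell line-derived neurotrophic factor ligands, rose from 2.62 ± 0.138 to 12.3 ± 0.0381 CPM (SD, n = 2), a log2 fold change of 2.23 (SE 0.18; adjusted p = 2.29e-12 in edgeR). FGFR2, a fibroblast growth factor receptor, fell from 30.8 ± 3.47 to 4.99 ± 0.368 CPM (log2 fold change -2.62). PDGFRA, a receptor for platelet-derived growth factor, fell from 110 ± 0.829 to 39.7 ± 2.77 CPM (log2 fold change -1.47). ERBB4, a neuregulin receptor, was at 1.70 and 0.559 CPM (log2 fold change -1.59; adjusted p = 0.00233 in edgeR and 0.0771 in DESeq2). Its call was also lost in edgeR without shControl replicate 1 (adjusted p = 0.0754), without shControl replicate 2 (0.0753) and without shNeuroD1 replicate 2 (0.0647). ALK, named here after its value was seen, rose from 35.8 to 90.4 CPM (log2 fold change 1.33). Of 6 FGF ligands tested, 1 was higher, with a median of -0.35 that was -0.11 at a mean of at least 1 CPM and turned to 0.09 on log2(FPKM + 1).

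Within the ERK cascade itself, 11 of 31 genes tested were higher and 11 lower, with a median of 0.06. SHC3, a neuronal adaptor between receptors and RAS, was the 1 gene past both thresholds, at 7.27 ± 1.83 CPM in shControl and 50.3 ± 1.57 CPM in shNeuroD1 (log2 fold change 2.78; SE 0.11; adjusted p = 2.8e-20 in edgeR). Other ETS factors gave 3 higher and 5 lower of 14 tested, with a median of -0.12. The genes that repress or degrade PEA3 factors gave 2 higher and 2 lower of 6, with a median of -0.08 (0.03 when scaled by library size alone). CIC, the repressor named above, was at 57.7 ± 4.996 CPM in shControl and at 78.7 ± 1.40 CPM in shNeuroD1 (SD, n = 2; log2 fold change 0.45; SE 0.06; adjusted p = 2.81e-07 in edgeR). Its log2 fold change was 0.09 on log2(FPKM + 1) and 0.10 on log2(FPKM + 0.1) (adjusted p = 0.751 and 0.750 in limma).

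Other brakes on RAS and ERK were split, with 8 of 18 tested higher and 5 lower and a median of 0.04. IL17RD, an inhibitor of FGF receptor signalling also called SEF, rose from 36.9 ± 3.69 to 106 ± 1.33 CPM (log2 fold change 1.52; adjusted p = 2.1e-19 in edgeR). SPRED3 rose by 1.45 on the log2 scale and SPRY3 by 1.03, paralogues of the SPRED and Sprouty genes above. LRIG3, of the LRIG family of receptor regulators, fell from 18.8 ± 0.711 to 6.41 ± 0.785 CPM (log2 fold change -1.55). Other MAP kinase phosphatases had 5 of 8 higher and 1 lower, with a median of 0.43. It was 0.16 on log2(FPKM + 1) and 0.25 on log2(FPKM + 0.1). DUSP8 rose by 2.04 and DUSP9 by 1.62 on the log2 scale. On FPKM the adjusted p of DUSP8 was 0.0540 and 0.0521 in limma. DUSP9 rested on 24 and 17 counts in shControl and on 59 and 67 in shNeuroD1.

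Immediate early genes, which ERK and other signals induce within minutes, were lower in 14 of 20 tested and higher in 2, with a median of -0.37. PHLDA1 fell from 119 ± 0.498 to 21.6 ± 1.64 CPM (log2 fold change -2.47; SE 0.07; adjusted p = 1.9e-24 in edgeR). EGR1, a zinc finger factor induced by ERK through ELK1 and SRF, fell from 48.3 ± 1.02 to 9.20 ± 0.192 CPM (log2 fold change -2.39). FOSB, an AP-1 subunit, fell from 4.16 ± 0.797 to 0.493 ± 0.233 CPM (log2 fold change -3.06). CCN1, a secreted matrix protein, fell by 1.70 on the log2 scale. ARC, a neuronal synaptic gene named here after its value was seen, was the 1 gene of the list higher past both thresholds (log2 fold change 1.25).

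The list of other ERK output genes had 5 of 8 tested higher and 2 lower, with a median of 0.88 that was 0.42 without a filter on low counts and in DESeq2 and 0.18 on FPKM. VGF, a secreted neuropeptide precursor, rose from 17.4 ± 0.423 to 98.8 ± 3.05 CPM (log2 fold change 2.504; SE 0.07; adjusted p = 6.11e-24 in edgeR). EPHA2, an ephrin receptor, rose by 1.31 and LIF, a cytokine, by 1.26 on the log2 scale, although the adjusted p of LIF was 0.00111 in edgeR and 0.0582 in DESeq2. PLAUR, the urokinase receptor, fell from 12.8 ± 0.0649 to 4.37 ± 0.700 CPM (log2 fold change -1.55).

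**Figure D4:**
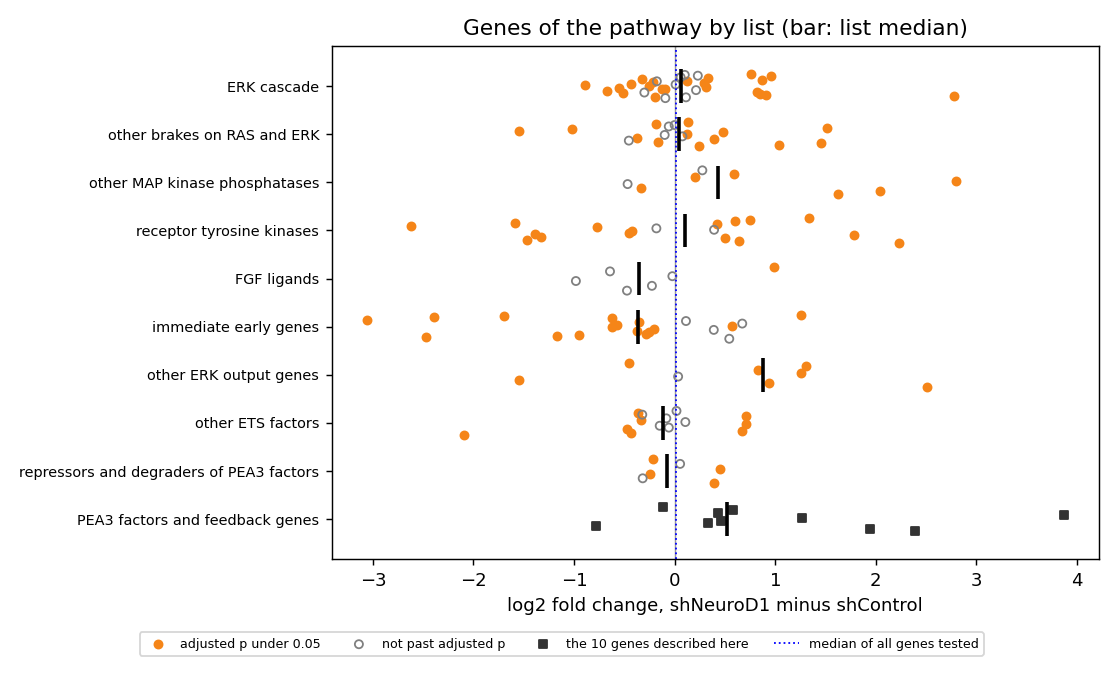
Log2 fold change (shNeuroD1 minus shControl) of the tested genes of 9 pathway lists and of the 10 genes described here. Bars are list medians, and a dotted line lies at the median of all genes tested (0.01). In the 9 lists, points are filled at an adjusted p under 0.05 and open otherwise. The 10 genes are dark squares whatever their adjusted p. Immediate early genes lie mostly left of 0, other MAP kinase phosphatases and other ERK output genes mostly right, and receptors on both sides.

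The genes whose levels over the 4 libraries lay nearest to ETV4, by Euclidean distance of log2 CPM centred on each gene's mean, were ARHGEF28 (distance 0.176), CNGB1 (0.604) and SRGAP3 (0.605). ARHGEF28 was at 6.16 ± 0.368 CPM in shControl and at 85.3 ± 0.360 CPM in shNeuroD1. Nearest to ETV5 were CREB5 (distance 0.0260), ME3 (0.0384) and H2BC20P (0.0467). With 2 groups of 2 libraries, this likeness is mostly likeness of the fold change.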

How the data were processed

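Poly(A) RNA of 2 shControl and 2 shNeuroD1 libraries was sequenced paired-end. Per the submitters' processing notes, the authors used cutadapt 1.9.1, HISAT2 2.0.1 and HTSeq 0.6.1 with the hg38 build, and deposited raw counts per gene (0% of counts in rows without a gene). They also deposited FPKM of starts, ends and splicing events of assembled transcripts, listing only values above 0; depth is not known for these, and the tool was not given in the sources used here. Symbols were found for 60401 of 60612 identifiers.

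Counts were filtered by filterByExpr (minimum count 10), TMM-scaled and tested two-sided in edgeR 4.0.16 (R 4.3.3) by quasi-likelihood with Benjamini-Hochberg adjustment over all genes. SE was the log2 fold change over the square root of F. Start shares were tested in limma 3.58.1 on log2((start + 0.1)/(other starts + 0.1)), where the gene averaged 1 FPKM or more, for shares of 5% to 95%. Likeness used log2(CPM + 0.01) for genes of at least 10 CPM. DESeq2 1.42.0, other scalings and filters, FPKM and leaving out libraries were alternatives. Scripts were tested on simulated data. The 10 genes, the lists and the rule for named genes (up to 4 per list, as stated in the text, with NEUROD1 and CIC, and 3 genes nearest ETV4 and ETV5) were chosen with earlier results of these data known.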

Additional observations from a re-analysis of the deposited data

Results flagged for a closer look

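Events in the FPKM tables, which the comparisons of counts did not use, were listed for SPRY4 and ETV4 in both shNeuroD1 libraries and in neither shControl library. The transcript start and the transcript end of SPRY4 each had a mean of 0.674 FPKM in shNeuroD1, from 1.06 and 0.283 FPKM. An alternative exon end and an included exon of SPRY4 each had a mean of 0.279 FPKM. In ETV4, skipping of an exon (43533187-43533348) and a spliced event at 43545367-43545558 each had a mean of 0.269 FPKM, from 0.523 and 0.0145 FPKM. An alternative exon end, a retained intron and a second form of the retained intron of ETV4 each had a mean of 0.0827 FPKM, and skipping of the exon at 43545558-43545668 had 0.000284 FPKM. The tables list only values above 0, and both genes also had fewer counts in shControl. Whether the events are absent in shControl or below what those libraries could show cannot be told apart. With 2 libraries a group, no single library was tested as standing apart.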

How the results depend on the processing

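Counts of calls past both thresholds came from 1541 higher and 902 lower genes, 4 higher and 0 lower of the 10 genes, and 14 higher and 14 lower list genes. Past the adjusted p alone these were 4698 and 4939 genes, 8 and 1 of the 10, and 45 and 48 list genes. DESeq2 called 998 genes higher. In limma on log2(FPKM + 1), 191 genes were higher and 202 lower, with 1 of the 10 higher (ETV4) and 3 list genes higher and 3 lower. On log2(FPKM + 0.1), 119 genes were higher and 120 lower, with 0 of the 10 higher and 1 list gene higher and 2 lower. The log2 fold change of ETV4 was 2.88 and 4.59 in these fits, against 3.87 from counts. Both ETV4 and DUSP6 reached the gene mean of 1 FPKM needed there only through shNeuroD1. The FPKM fits tested 10084 genes and could not include ETV5, SPRY1, SPRY2 or SPRY4, and NEUROD1 itself was at -0.96 and -1.08 there (adjusted p = 0.302 and 0.325). The cause was not tested. Leaving out each library in turn, where the lone sample of a group is assumed to vary like the other group, gave 1054 to 1337 higher and 750 to 901 lower genes, and 4 of the 10 higher each time. Over these 4 fits the log2 fold change of ETV4 ran from 3.71 to 4.04, SPRY4 from 2.19 to 2.59, SPRY2 from 1.91 to 1.95, ETV5 from 1.19 to 1.33 and SPRY1 from -0.87 to -0.70. Library size alone moved the median of all genes by over 0.1, to 0.12, and DUSP4 to -0.004. No start passed the share test in any alternative.

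No pairing of the libraries by replicate number was seen, and numbers in the labels name no shared culture. Deviations of same-numbered libraries from their group means correlated at 0.0186 over 17537 genes. Genes with low counts are among these, so the value cannot decide whether libraries were paired. With a replicate block 1511 genes were higher and 899 lower, 4 of the 10 were higher, 14 list genes were higher and 14 lower, and 0 starts were called.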
